A study of Mus musculus with 6 samples.

Results

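Integrin subunits, filamins and the adaptor proteins of focal adhesions were followed by RNA sequencing in 6 tumours of G422, a mouse glioblastoma cell line. The members were the rows of the deposited count matrix whose Ensembl mouse gene ID carries a symbol of the set, 45 of 54532 rows, made up of 25 integrin subunits and 20 adaptors. G422 cells carried either a lentiviral construct labelled shNgb, named for a short hairpin against neuroglobin, or its vector, labelled shVec. Cells of each kind were grown under the skin of Kunming mice, an outbred stock, and 3 tumours of each kind were sequenced, all labelled untreated. The title speaks of a knockdown, whereas the design text names Ngb itself as what was introduced. The sources used here give neither the hairpin sequence nor the number of cell clones nor the age of the mice. They do not say either whether each tumour came from its own mouse, and p-values therefore reflect the variation among these 6 tumours only.

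The libraries held 19630319 to 25620667 reads. Ngb, the targeted gene, had 28, 23 and 13 reads under shVec against 18, 19 and 11 under shNgb, with overlap between the groups. The log2 fold change, shNgb minus shVec here and throughout, came to -0.59 for Ngb (SE 0.42, edgeR adjusted p = 0.9997). The labelled glioblastoma identity was checked against glial and neural stem cell markers. Nes and Sox2 were present, at 383 to 545 CPM (read counts after scaling to equal library sizes) and 13.8 to 22.6 CPM, while Olig1, Olig2 and Aqp4 had no read in any tumour and Gfap had 15 reads in all 6. The tumours also held host cells. In such bulk samples fewer cells of a type and less RNA per cell cannot be told apart.

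Integrins are receptors made of an alpha and a beta chain that bind matrix proteins or receptors of other cells on the outside and the actin cytoskeleton on the inside. Talins and kindlins bind the beta tail and switch the receptor on. Vinculin, alpha-actinins, filamins and tensins tie it to actin, and the kinases FAK and SRC with the scaffolds paxillin and p130Cas pass signals on. In glioma, integrins of the RGD-binding and laminin-binding classes are known for their part in invasion along vessels and matrix.

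By FPKM (the deposited values scaled by gene length and library, used here to compare levels between genes), Itgb1, the beta chain shared by most matrix receptors, was the highest member with a mean of 396 over the 6 tumours. Itga5, which pairs with it to form the classical fibronectin receptor, followed at 123 and Vasp, a promoter of actin filament growth, at 118. The order went on with Flna at 72.4, Actn4 at 54.0 and Actn1 at 48.3. The ranges of Itga5 and Vasp over the 6 tumours overlapped (96.9 to 141 and 103 to 124), and so did those of Actn4 and Actn1 (52.0 to 57.8 and 44.5 to 53.0). At the low end stood Itgam at 0.264, Itga11 at 0.160 and Itga2b at 0.132, where the Itgam level is uncertain because of shared exons, described below. Itgb6, the epithelial partner of alphaV, had 8 reads in all and was too low to be tested.

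**Figure D1:**
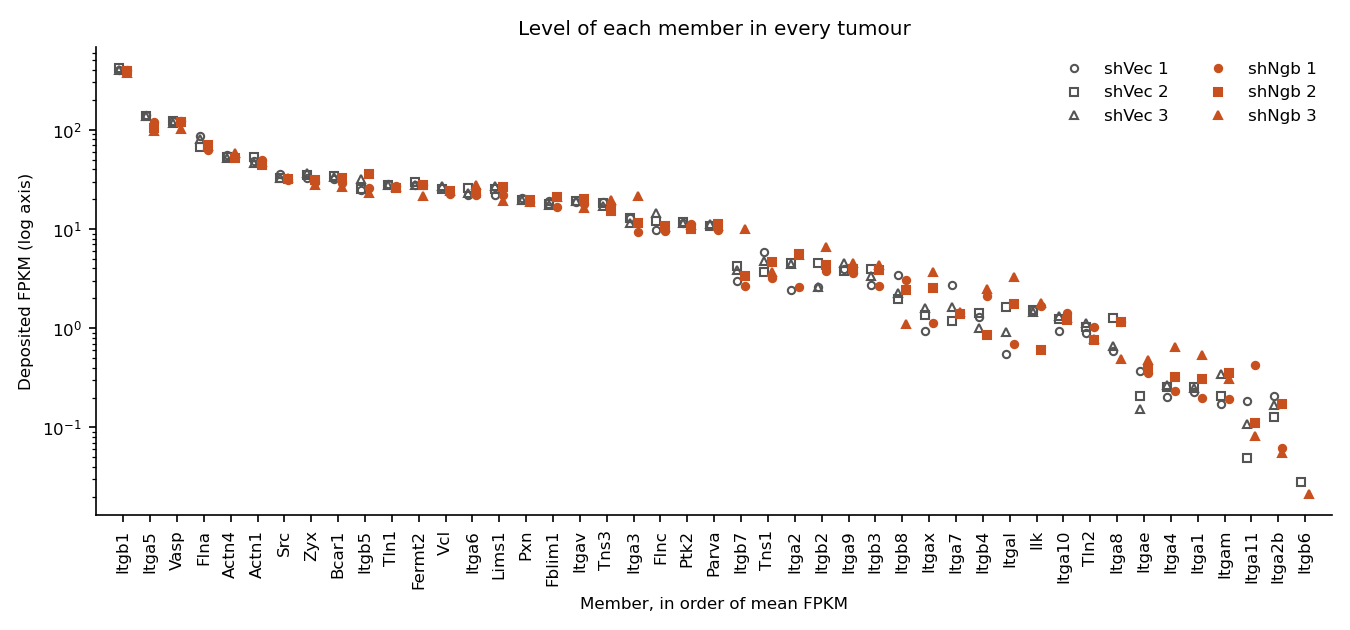
Deposited FPKM (log axis) of the 45 members in each of the 6 tumours, in order of mean FPKM; open grey symbols are shVec and filled orange symbols shNgb, and a tumour listed at 0 is not drawn. Itgb1 lies highest at 373 to 416, Itga5 next at 96.9 to 141, and Itgb6 is drawn for 2 of the 6 tumours.

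No member passed the edgeR test adjusted over all genes. Of 45 members 44 were tested and 0 were called, as were 0 of the 15203 genes tested (0%), where the smallest adjusted p was 0.9997. At an unadjusted p under 0.05 stood 2 members lower in shNgb, Itga5 and Zyx, against 1.22% of all tested genes in that direction, and 0 members higher, against 1.35%. DESeq2, an alternative count test, called 5 of 27832 genes (0.018%), of which none is a member. By DESeq2 5 members had an unadjusted p under 0.05, 2 of them lower and 3 higher, against 0.772% and 0.941% of all its genes. Those genes include low ones that the edgeR filter removes, so the shares are not on the same base as for edgeR. The groups did not overlap for 6 members, all lower in shNgb: Itga5, Itgb1, Tln1, Vcl, Ptk2 and Zyx. Among all tested genes 3.43% were lower and 3.67% higher without overlap. With upper quartile scaling 4 of the 6 remained without overlap, and Itgb1 and Ptk2 then overlapped.

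Itga5 had the smallest p of the members. It stood at 699, 677 and 679 CPM in the shVec tumours and at 597, 525 and 482 CPM in the shNgb tumours. All 3 shNgb values lay below the lowest shVec value, and the shNgb tumours spread more widely, with means of 685 ± 11.9 and 535 ± 57.8 CPM (SD, n = 3 each). The log2 fold change was -0.36 (SE 0.09, 95% interval -0.55 to -0.16), a fold of 0.781 that in edgeR gave an unadjusted p of 0.00256 and an adjusted p of 0.9997. Leaving out any tumour kept the log2 fold change between -0.45 and -0.29. The 10 markers of glial and neural stem cells summed to 844 to 895 CPM in shVec against 740 to 806 CPM in shNgb. Of these markers 6 had a mean under 1 CPM, so the sum rests on few genes. Only 4 were tested, 3 with a negative log2 fold change and 1 with a positive one. The part of these markers in the Itga5 difference was not tested.

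Itga5 (ENSMUSG00000000555) lies on chromosome 15 at 103344286 to 103366763 on the minus strand (GRCm38, GENCODE M21), and none of its exonic bases is shared with another gene. Its promoter is shown beside that of vinculin (Vcl, ENSMUSG00000021823, chromosome 14 at 20929398 to 21033676, plus strand), a pair picked by name. Both had groups without overlap and windows outside annotated exons. The same held for Itgb1, whose whole window is not shown. The windows are the 250 bases before the RefSeq start on GRCm38.p6, chr15:103366792-103367041 on the minus strand and chr14:20929148-20929397 on the plus strand, 5′ to 3′. Capitals in the vinculin window mark a CArG box, the site of serum response factor (SRF), 227 bases before the start, and a TEAD half-site (GGAATG or CATTCC) 143 bases before it.
Itga5 promoter: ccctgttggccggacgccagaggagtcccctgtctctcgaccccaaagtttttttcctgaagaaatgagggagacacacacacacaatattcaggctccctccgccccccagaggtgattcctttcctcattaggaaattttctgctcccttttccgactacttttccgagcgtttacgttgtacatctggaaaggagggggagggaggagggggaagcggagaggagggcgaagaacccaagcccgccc
Vcl promoter: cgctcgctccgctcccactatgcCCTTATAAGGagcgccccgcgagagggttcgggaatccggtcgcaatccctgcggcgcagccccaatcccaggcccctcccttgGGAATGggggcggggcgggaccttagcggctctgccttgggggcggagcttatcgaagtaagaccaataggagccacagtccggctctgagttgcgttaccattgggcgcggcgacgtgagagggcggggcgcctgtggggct

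The 3 motifs searched, on both strands, were the CArG box, the TEAD half-site and the AP-1 site TGACTCA or TGAGTCA, and the Itga5 window held none of these letters. RefSeq promoters matched 34 of the 45 members, with 42 windows. The CArG box was in 3 of these 42 windows (7.14%) and in 1.47% of all 32851 windows. The TEAD half-site was in 7 (16.7%) against 12.6%, and the AP-1 site in 3 (7.14%) against 4.46%. With so few windows the shares of the members are rough, and the differences were not tested. The other members with a CArG box were Fermt2 and Itgb6, and those with an AP-1 site were Zyx, Fblim1 and Itgax. The stretches around 2 of these sites are shown for adaptors described below, with the motif in capitals: Zyx at chr6:42349697-42349723 on the plus strand, 121 bases before the RefSeq start used, and Fermt2 at chr14:45530250-45530279 on the minus strand, 204 bases before its RefSeq start. The GENCODE gene of Zyx begins further upstream, so the Zyx site lies inside it, and 122 of the 250 window bases are in annotated exons, against 53 for Fermt2.
Zyx AP-1 site: gtgcggacagTGAGTCAgttctccagc
Fermt2 CArG box: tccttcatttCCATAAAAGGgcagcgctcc
A match describes the letters of a window and is not evidence of binding.

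Itgb1, the partner chain, had a log2 fold change near 0. It stood at 1638, 1709 and 1634 CPM in shVec and 1625, 1621 and 1537 CPM in shNgb. The groups were separated by a gap smaller than the spread within either, and the log2 fold change was -0.059 (SE 0.064, edgeR unadjusted p = 0.384). In FPKM the ratio of Itga5 to Itgb1 was 0.353, 0.328 and 0.344 with the vector, against 0.304, 0.268 and 0.260 with shNgb, again without overlap. Itga5 made up 66.3% ± 1.55 of the summed alpha chain FPKM in shVec and 59.0% ± 6.76 in shNgb, with single shNgb tumours at 65.9%, 58.8% and 52.3% that overlapped the shVec range of 64.8% to 67.9%. Itgb1 made up 90.7% ± 0.76 and 89.4% ± 1.29 of the summed beta chain FPKM (SD, n = 3 each).

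**Figure D2:**
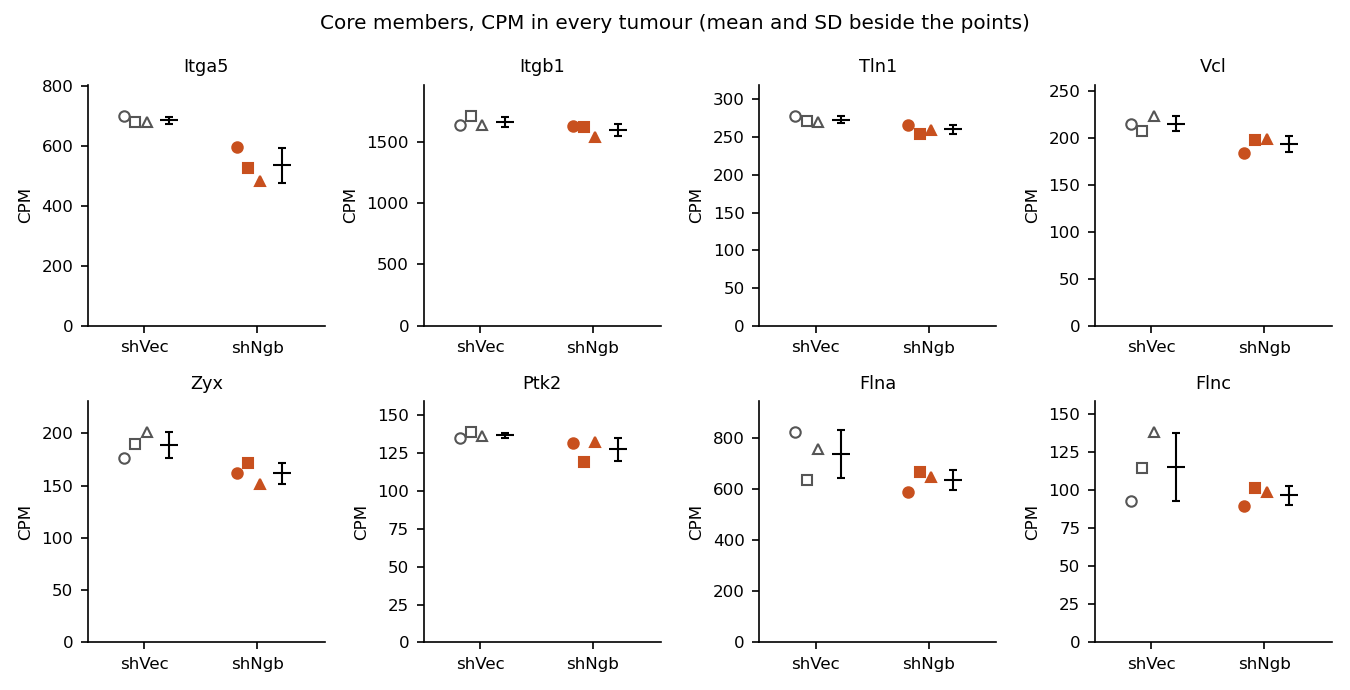
CPM (linear axis from 0) of 8 members in each of 3 shVec tumours (open) and 3 shNgb tumours (filled), with the mean and SD as bars beside the points. In Itga5, Itgb1, Tln1, Vcl, Zyx and Ptk2 the shNgb points all lie below the shVec points, while in Flna and Flnc the groups overlap.

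The other RGD-binding chains showed no such separation. Itgav, the alphaV chain of vitronectin and latent TGF-beta receptors, stood at 199, 208 and 207 CPM in shVec and 194, 216 and 175 CPM in shNgb. Itga8, a nephronectin receptor, ranged from 3.64 to 9.32 CPM, and Itga2b, the platelet fibrinogen receptor, from 0.307 to 1.14 CPM on 95 reads in all. The platelet marker Gp1bb had no read, and the 9 platelet genes summed to 2.46 to 6.26 CPM in shVec and 3.00 to 3.95 CPM in shNgb. Their part in the Itga2b values was not tested.

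None of the laminin-binding chains had a p under 0.05. Itga6, the alpha chain best known from glioma stem cells, stood at 199, 237 and 209 CPM in shVec and 197, 210 and 255 CPM in shNgb, with its highest value in shNgb 3. Itga3 was also highest there, with 65.4 to 74.7 CPM in shVec and 53.3, 66.9 and 125 CPM in shNgb. Itga7, the laminin receptor of muscle, stood at 21.9, 9.68 and 13.3 CPM in shVec and at 11.6, 11.4 and 11.8 CPM in shNgb, so that its log2 fold change of -0.37 (SE 0.27, edgeR unadjusted p = 0.209) rested on shVec 1 and was 0.016 without that tumour. Skeletal muscle markers summed to 33.9 CPM in shVec 2 and 9.45 to 12.4 CPM in the other tumours, and their part in the Itga7 values was not tested.

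The 4 collagen-binding chains all had higher means in shNgb, with a median log2 fold change of 0.40 and no p under 0.05. Itga2, the most abundant by FPKM, stood at 17.2, 32.5 and 32.0 CPM in shVec and 18.6, 40.3 and 39.6 CPM in shNgb, so tumour 1 of each group was low. Itga1 stood at 4.24, 4.74 and 4.68 CPM in shVec and 3.71, 5.80 and 10.04 CPM in shNgb (log2 fold change 0.52, SE 0.33, edgeR unadjusted p = 0.154, and 0.064 without shNgb 3). Itga10 ranged from 4.88 to 7.38 CPM over the 6 tumours, and 33.5% of its exonic bases are shared with an overlapping gene model. Itga11, the collagen receptor of fibroblasts, was highest in shNgb 1 at 2.17 CPM and ranged from 0.252 to 0.957 CPM in the others. The summed fibroblast markers were also highest in shNgb 1, at 2383 CPM, and ranged from 1122 (shNgb 3) to 1963 CPM elsewhere. Col3a1 alone gave 1666 CPM of the sum in shNgb 1 and 605 CPM in shNgb 3, so the sum rests largely on 1 gene. Of the 7 tested fibroblast markers 6 had a positive log2 fold change, and Col3a1 had a negative one. The part of these markers in the Itga11 values was not tested.

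Among the remaining beta chains, Itgb5, a partner of alphaV, stood at 88.6 to 113 CPM in shVec and 81.9 to 129 CPM in shNgb. Itgb3, the other vitronectin receptor chain, ranged from 15.8 to 25.8 CPM, and Itgb8, which activates latent TGF-beta, from 12.4 to 38.0 CPM with its lowest value in shNgb 3. Itgb4, the hemidesmosome chain that pairs with alpha6, stood at 9.11, 10.1 and 7.13 CPM in shVec and 14.9, 6.09 and 17.4 CPM in shNgb (log2 fold change 0.54, SE 0.36, edgeR unadjusted p = 0.175), which became 0.25 without shNgb 3 and 0.88 without shNgb 2. Its lowest and its highest values were both in shNgb tumours. Of the 4 other hemidesmosome genes Plec, Dst, Cd151 and Col17a1, none had a p under 0.05.

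Integrins of leukocytes, which guide adhesion and migration of blood cells, had higher means in shNgb in 6 of 6 cases, with a median log2 fold change of 0.68 against 0.0026 over all tested genes. None had an unadjusted edgeR p under 0.05 and all 6 overlapped between the groups. DESeq2 gave an unadjusted p under 0.05 for Itgax (0.00844) and Itgb2 (0.0258) and for none of the others, with an adjusted p of 0.9999 for both. Itgax, the CD11c chain of dendritic cells and macrophages, had the smallest edgeR p of the 6, at 4.56, 6.55 and 7.69 CPM in shVec and 5.40, 12.3 and 17.9 CPM in shNgb. This gave a log2 fold change of 0.93 (SE 0.42, edgeR unadjusted p = 0.0590), and of 0.50 without shNgb 3. Itgb7, the highest of the 6 by mean FPKM, stood at 8.38, 11.7 and 10.8 CPM in shVec and 7.43, 9.38 and 28.2 CPM in shNgb. Tumour shNgb 3 alone lay above the shVec range, and without it the log2 fold change of Itgb7 was -0.29 in place of 0.55. By FPKM Itgb2 lay above Itgb7 in shVec 2, shNgb 1 and shNgb 2. It lay below Itgb7 in the other tumours, most of all in shNgb 3 (6.64 against 10.1).

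Itgb2, the beta chain common to the CD11 family, ranged from 7.99 to 13.9 CPM in shVec and 11.4 to 20.5 CPM in shNgb. Itgal, the lymphocyte chain of LFA-1, ranged from 3.64 to 10.9 CPM and 4.53 to 21.6 CPM. Itgae, the chain of tissue-resident lymphocytes, was at 0.713 to 1.69 CPM and 1.64 to 2.22 CPM, and Itgam at 0.866 to 1.73 CPM and 0.964 to 1.81 CPM. For Itgam 68.7% of exonic bases are shared with an overlapping gene model that had no read. How reads in shared exons were counted is not stated in these sources, so the Itgam level is uncertain. Itga4, which leukocytes carry as the receptor of VCAM1, stood at 2.87, 3.63 and 3.77 CPM in shVec and 3.23, 4.61 and 9.16 CPM in shNgb (log2 fold change 0.73, SE 0.37, edgeR unadjusted p = 0.0806, and 0.20 without shNgb 3). Its relative Itga9 stood at 30.3, 29.3 and 34.7 CPM and 28.0, 31.1 and 35.6 CPM, with a log2 fold change of 0.009.

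Markers of white blood cells were read beside these integrins. The 6 general leukocyte markers summed to 42.4, 75.3 and 51.4 CPM in shVec against 52.0, 86.2 and 121 CPM in shNgb, and 6 of 6 had positive log2 fold changes. The 12 macrophage markers summed to 120 to 266 CPM in shVec and 155 to 378 CPM in shNgb, with 11 of 11 tested markers positive. The 12 T and NK cell markers summed to 4.28 to 12.3 CPM in shVec and 5.06 to 24.5 CPM in shNgb, with 9 of 9 tested positive. The 7 dendritic cell markers summed to 3.05 to 4.18 CPM against 2.85 to 6.09 CPM, with 3 of 4 tested positive. Neutrophil markers summed to 2.19 to 3.73 CPM against 2.88 to 11.8 CPM, highest in shNgb 1, and Ly6g had no read. A mean under 1 CPM was found for 7 T and NK cell, 6 dendritic cell and 6 of the 8 neutrophil markers. These sums and signs therefore rest on few reads. Of the macrophage markers 1 had a mean under 1 CPM. In each of the leukocyte, macrophage and T cell sums the highest tumour was shNgb 3 and shNgb 1 lay within the shVec range. The part of these cells in the integrin values was not tested.

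**Figure D3:**
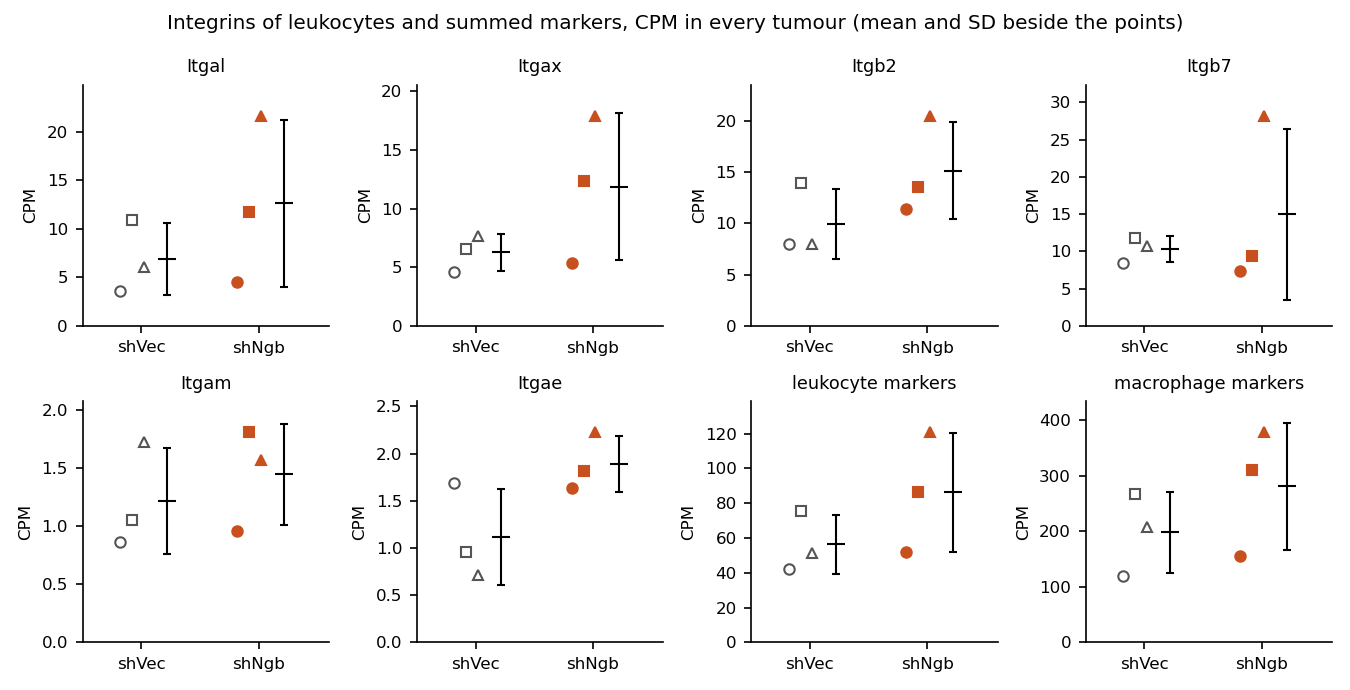
CPM (linear axes from 0) of the 6 leukocyte integrins, and the summed CPM of the general leukocyte and macrophage markers, in 3 shVec tumours (open) and 3 shNgb tumours (filled), with mean and SD beside the points. The highest point is shNgb 3 in every panel except Itgam, where it is shNgb 2, and the groups overlap in all 8 panels.

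The 20 adaptors differed little between the groups in size but mostly in 1 direction. Of them 18 had a negative log2 fold change, all but Actn4 and Fblim1, with a median of -0.12, where 49.1% of all tested genes were negative with a median of 0.0026. Of the 24 tested integrin subunits 6 were negative (Itga5, Itga7, Itgav, Itga2b, Itgb1 and Itgb8), with a median of 0.18. Both counts were the same under RLE and upper quartile scaling, and with 1 tumour left out 16 to 19 adaptors and 6 to 9 integrin subunits were negative. The median of the integrin subunits was 0.036 without shVec 1, 0.091 without shNgb 2 and 0.11 without shNgb 3. These genes are measured in the same 6 tumours, so their signs are not independent of one another.

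**Figure D4:**
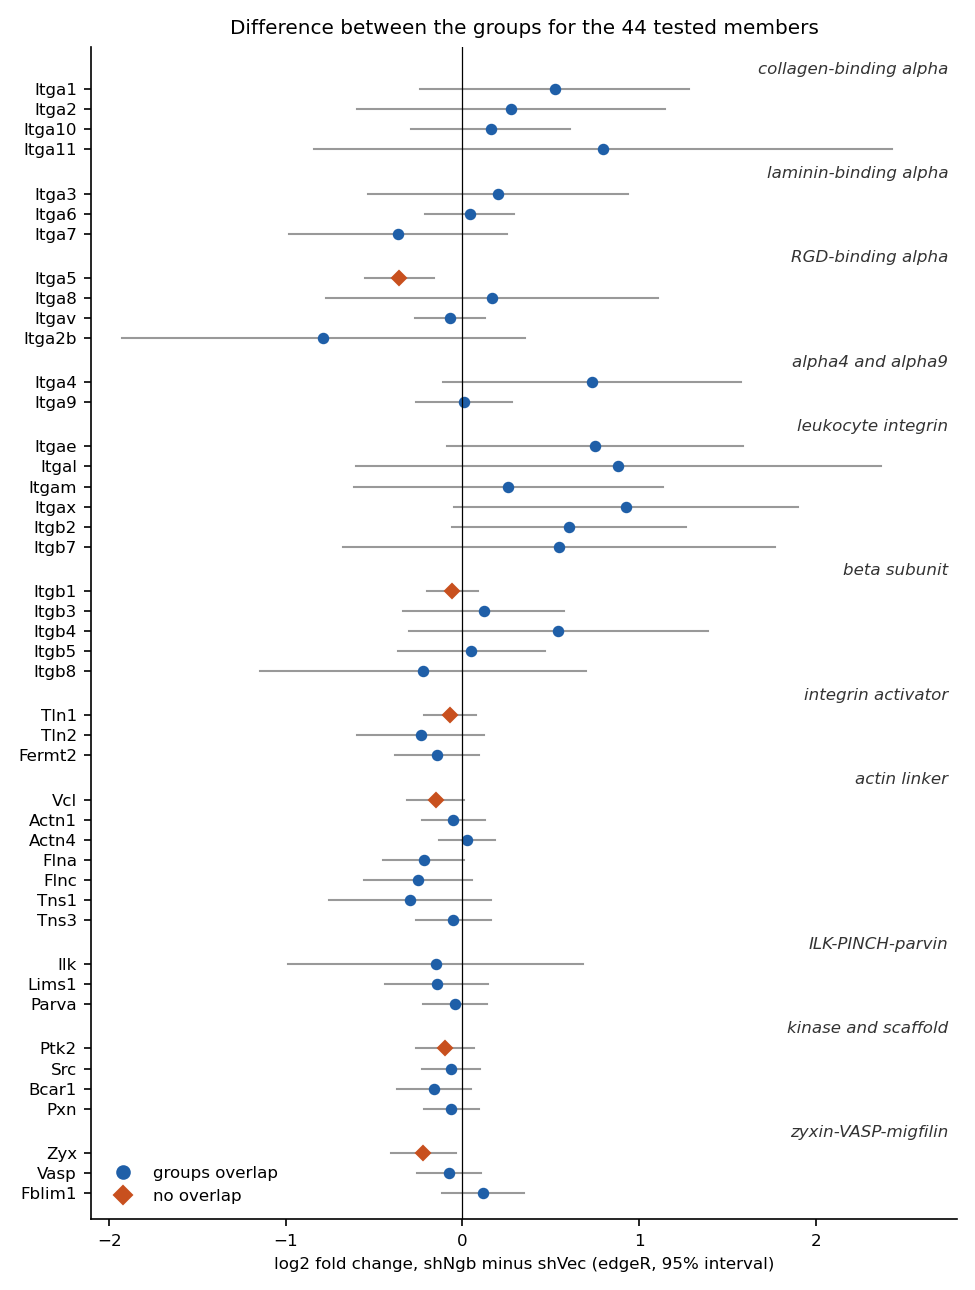
Log2 fold change (shNgb minus shVec, edgeR, bars are 95% intervals) of the 44 tested members grouped by role; orange diamonds mark members whose groups do not overlap. The intervals of Itga5 and Zyx alone exclude 0, the adaptors in the lower part lie mostly just left of 0, and the leukocyte integrins lie right of 0 with wide intervals.

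Talin, which unlocks integrins by binding their beta tail, varied little. Tln1 stood at 278, 271 and 270 CPM in shVec and 266, 254 and 260 CPM in shNgb, without overlap but with a log2 fold change of -0.070 (SE 0.064, edgeR unadjusted p = 0.304). Its paralog Tln2 stood at 16.4, 19.1 and 20.8 CPM and 19.1, 14.2 and 14.5 CPM (log2 fold change -0.23, edgeR unadjusted p = 0.173), with overlap. Fermt2, the widely expressed kindlin, ranged from 144 to 156 CPM in shVec and stood at 144, 145 and 113 CPM in shNgb, so shNgb 3 alone lay apart. Of the other kindlins, the epithelial Fermt1 had no read and the blood cell form Fermt3 stood at 4.15 to 9.04 CPM.

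Actin linkers included the filamins, long flexible dimers that crosslink actin and bind integrin tails. Vcl stood at 214, 207 and 223 CPM in shVec and 184, 198 and 199 CPM in shNgb. All shNgb values were lower, with a log2 fold change of -0.15 (SE 0.07, 95% interval -0.31 to 0.01, edgeR unadjusted p = 0.0622). Of the exonic bases of Vcl 25.5% overlap the antisense gene Ap3m1, which had 11040 reads against 27014 for Vcl, and in libraries made without strand such reads cannot be told apart.

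Flna stood at 821, 634 and 756 CPM in shVec and 590, 665 and 646 CPM in shNgb. The shVec 2 tumour lay inside the shNgb range, and the log2 fold change of -0.22 (SE 0.10, edgeR unadjusted p = 0.0594) ran from -0.32 without shVec 2 to -0.14 without shVec 1. Flnc, the muscle filamin, stood at 93.0, 115 and 138 CPM and 89.8, 102 and 98.5 CPM, a log2 fold change of -0.25 (SE 0.13, edgeR unadjusted p = 0.0958). Per length, Flnc stood at 0.113, 0.181 and 0.182 of the Flna FPKM in shVec and 0.152, 0.153 and 0.153 in shNgb.

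The other linkers overlapped between the groups. Actn1 ranged from 258 to 295 CPM in shVec against 249 to 278 CPM in shNgb, and Actn4, 1 of the 2 adaptors with a positive log2 fold change, from 320 to 338 CPM and 325 to 357 CPM. Tns1, a tensin of mature fibrillar adhesions, ranged from 58.7 to 94.3 CPM and 51.6 to 75.6 CPM, and Tns3 from 194 to 210 CPM and 173 to 219 CPM.

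In the ILK-PINCH-parvin complex, a scaffold on the beta tail, no member had a p under 0.05. Lims1, which encodes PINCH1, stood at 109, 123 and 134 CPM in shVec and 108, 130 and 93.5 CPM in shNgb (log2 fold change -0.15, SE 0.13, edgeR unadjusted p = 0.287). Parva ranged from 108 to 115 CPM and 100.4 to 116 CPM. Ilk was listed at 4.02 to 4.24 CPM in shVec and 4.58, 1.69 and 4.94 CPM in shNgb. Its mean FPKM was 1.43, against 23.6 for Lims1 and 10.8 for Parva. Of its exonic bases 89.7% are shared with the antisense genes Taf10 and Rrp8, and Taf10 had 12029 reads against 520 for Ilk. How the authors counted reads in shared exons is not stated in these sources, so the Ilk level is uncertain.

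Kinases and scaffolds varied little, with a median coefficient of variation of 3.67% in shVec and 4.73% in shNgb. Ptk2, which encodes focal adhesion kinase, stood at 135, 139 and 136 CPM in shVec and 132, 119 and 132 CPM in shNgb. The groups did not overlap, and the log2 fold change was -0.10 (SE 0.07, edgeR unadjusted p = 0.206). Src, the kinase that joins it, stood at 156, 143 and 143 CPM and 137, 142 and 144 CPM, with overlap. Bcar1, the p130Cas scaffold, had the smallest p of this role at 144, 156 and 154 CPM and 133, 151 and 121 CPM (log2 fold change -0.16, SE 0.09, edgeR unadjusted p = 0.118). Pxn, paxillin, ranged from 161 to 170 CPM and 153 to 164 CPM.

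Zyx, zyxin, which moves to strained actin and to mature adhesions, had the smallest p of the adaptors. It stood at 176, 190 and 201 CPM in shVec and 162, 172 and 152 CPM in shNgb. The highest shNgb tumour lay just under the lowest shVec tumour, with means of 189 ± 12.4 and 162 ± 9.96 CPM (SD, n = 3 each). The log2 fold change was -0.22 (SE 0.08, 95% interval -0.41 to -0.04), with an edgeR unadjusted p of 0.0231 and an adjusted p of 0.9997. Leaving out 1 tumour moved the unadjusted edgeR p to between 0.0147 and 0.0968, and it was above 0.05 without shVec 2, shVec 3, shNgb 1 or shNgb 3. Zyx (ENSMUSG00000029860) lies on chromosome 6 at 42349630 to 42360213 on the plus strand, and 4.4% of its exonic bases overlap antisense Epha1.

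The partners of zyxin differed from it. Vasp stood at 325, 320 and 311 CPM in shVec and 318, 318 and 272 CPM in shNgb, so that shNgb 3 alone was low (log2 fold change -0.075, edgeR unadjusted p = 0.375). Fblim1, migfilin, which binds filamin and kindlin, ranged from 77.7 to 84.8 CPM and 75.0 to 93.7 CPM with a positive log2 fold change of 0.12.

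How far the tumours of a group lay apart differed by class. The median coefficient of variation of the adaptors was 4.36% in shVec and 6.80% in shNgb, against 11.1% and 11.9% over all tested genes. For the integrin subunits it was 17.7% and 34.4%. The subunits include the lowest members, whose counting error is larger, and the part of the read number in this was not tested. Tumour shNgb 3 held the highest value of 15 of the 44 tested members (34.1%, against 21.9% of all tested genes) and the lowest of 13 (29.5%, against 20.8%). Tumour shNgb 1 held the lowest value of another 13 members, against 13.3% of all genes, and the highest of 2.

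**Figure D5:**
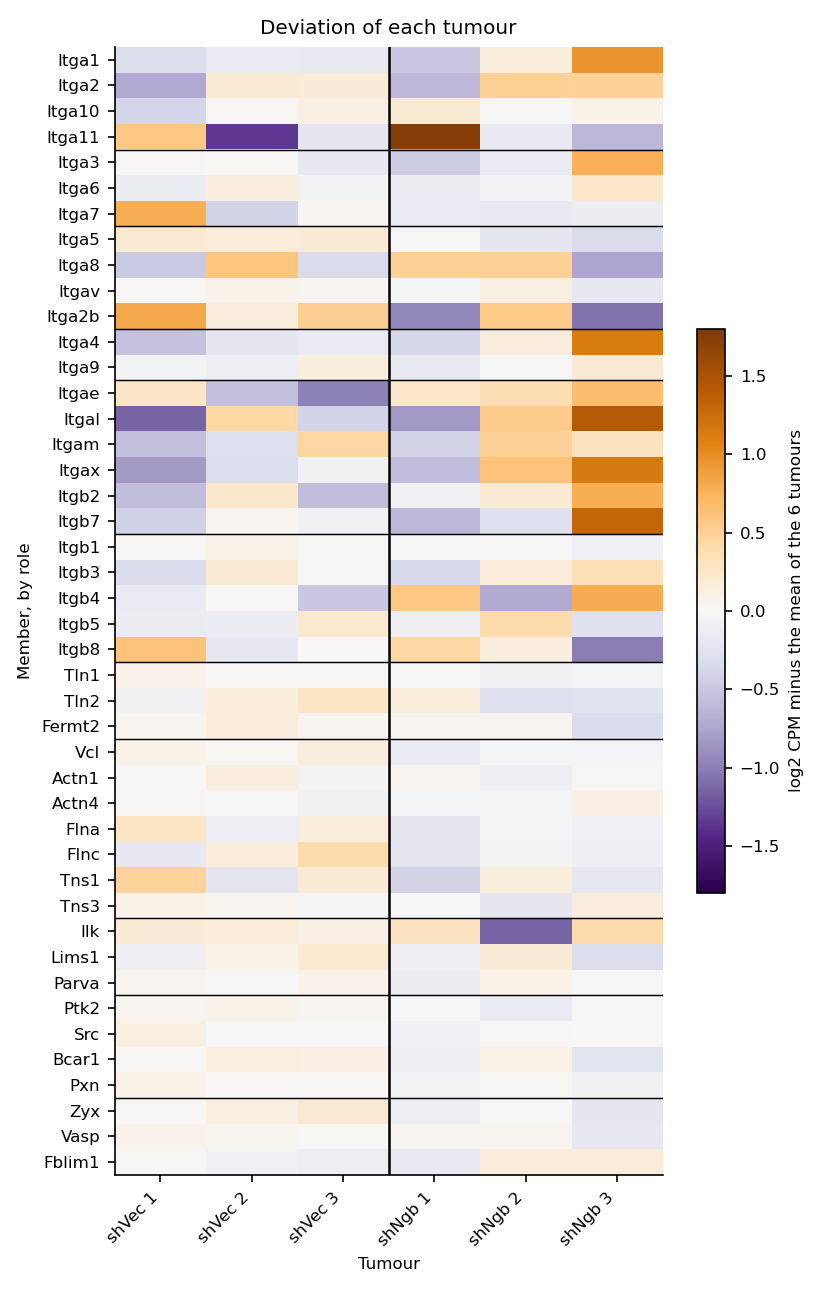
Deviation of each tumour from the mean over all 6 on the log2 CPM scale (colour, orange above and purple below) for the 44 tested members, by role from top to bottom as in the plot of fold changes. Apart from Ilk in shNgb 2, the strongest colours are in integrin subunits, while most adaptor rows are pale. Tumour shNgb 1 is high in Itga11, and shNgb 3 is high in Itga1, Itga3, Itga4 and the leukocyte integrins other than Itgam.

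Other genes of the pathway were read from lists of their names, and no gene passed the adjusted edgeR test. Among 50 tested adhesion adaptors outside the set, 28 had negative log2 fold changes. Of 24 tested integrin ligands 15 were negative, and 2 were higher at an unadjusted edgeR p under 0.05, Col1a2 and Col1a1, the latter at 196, 139 and 130 CPM in shVec against 354, 210 and 281 CPM in shNgb. Col1a1 was called by DESeq2 (adjusted p = 0.0443) and not by edgeR (adjusted p = 0.9997). The fibrinogen genes Fga, Fgb and Fgg had no read. Fn1, the ligand of the Itga5 receptor and named outside the rule after its values were seen, stood at 3083, 2071 and 2874 CPM in shVec and 2063, 2736 and 1205 CPM in shNgb, with overlap (log2 fold change -0.42, SE 0.31).

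Cell-surface counter-receptors of the leukocyte integrins included Vcam1, at 5.79, 11.3 and 9.62 CPM in shVec and 6.85, 15.3 and 29.0 CPM in shNgb. Of the 7 tested counter-receptors 6 had positive log2 fold changes and none had a p under 0.05, and Icam4 and Madcam1 had no read. Of 26 genes of actomyosin and its regulators 18 were negative and 2 had an unadjusted p under 0.05, both lower: Myh9, the heavy chain of non-muscle myosin, at 1341, 1230 and 1263 CPM and 1155, 1050 and 1091 CPM (log2 fold change -0.22, edgeR unadjusted p = 0.0129, adjusted p = 0.9997), and Tpm2. SRF and its coactivators, which drive many adhesion and actin genes, were negative in 3 of 3 cases. Mrtfa stood at 125, 120 and 137 CPM in shVec and 101, 103 and 116 CPM in shNgb without overlap (log2 fold change -0.26, SE 0.09, edgeR unadjusted p = 0.0145, adjusted p = 0.9997).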

How the data were processed

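Total RNA of 6 subcutaneous tumours was sequenced from TruSeq RNA libraries, per the labels' protocols; that kit does not mark strand. Groups and replicate numbers came from the sample titles. Bowtie 0.12.2 and the builds mm8 and mm10 are named, without a role, in the submitters' processing notes. The authors deposited whole-number read counts per Ensembl gene and FPKM values. No aligner setting, counter, annotation or treatment of shared exons is given in the sources used here. In 11113 genes with over 50 reads in each library the FPKM equalled the count times a gene factor and a library factor, within a relative 5.3e-09. Symbols came from GENCODE M21 (GRCm38), for 54409 of 54532 IDs. No 2 libraries agreed within sampling noise (chi-square per degree of freedom 9.44 or more).

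Counts were tested with edgeR 4.0.16 in R 4.3.3 (default expression filter, TMM scaling, robust quasi-likelihood test, Benjamini-Hochberg adjustment over 15203 genes, threshold 0.05). CPM are TMM-scaled, and errors after ± are SD. The SE of an edgeR log2 fold change was derived from that fold change and the F statistic of its test. The 95% intervals were built from this SE, so both are approximate. Overlap compares the CPM of the groups. As alternatives, scaling was by RLE or the upper quartile, low genes were all kept or filtered strictly (at least 10 reads and 1 CPM in 3 libraries), the test was that of DESeq2 1.42.0 or limma-voom (version 3.58.1), a block for the replicate number was added, and each tumour was left out with the tested genes kept. The edgeR script was tested on simulated data. Copies were sought with blastn 2.17.0 (95% identity over 250 bases), which found distant ones for Itga6 and Itgb5, each with 72 reads. Promoters are RefSeq's, 250 bases before each start.

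The members and all lists were chosen with earlier results of these data known. The rule for values in every tumour took members with an unadjusted p under 0.05, members without overlap, and in each role the member of smallest p and of highest FPKM; lists gave at most 4 genes of smallest p and genes without reads. Protein sequences were not used here, and values of some list genes are not reported here.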

Additional observations from a re-analysis of the deposited data

How the results depend on the processing

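No member passed an adjusted p under 0.05 under any of the 13 alternatives. Over all genes 3 were called without a filter, 5 by DESeq2 and 1 with the replicate block, against 0. Members at an unadjusted p under 0.05 numbered 6 without a filter (Itga5, Flna, Flnc and Zyx lower, Itga4 and Itgb2 higher) and 5 by DESeq2 (Itga5 and Zyx lower, Itga4, Itgax and Itgb2 higher), against 2, and 1 to 8 with 1 tumour left out, the 8 without shNgb 1. That is 13.3% of members without a filter (2.99% of all genes), 11.1% by DESeq2 (1.71%), 18.2% without shNgb 1 (4.89%), and 2.27% without shVec 3 (1.24%) or shNgb 3 (2.02%), against 4.55% (2.58%). The shares of all genes without a filter and by DESeq2 are over 27834 and 27832 genes. These include low genes that the main filter removes, so they are an unlike base for members, nearly all of which pass it. Itga5 was among the members at an unadjusted p under 0.05 in every alternative. Members without overlap numbered 7 to 14 with 1 tumour left out, against 6. That is 15.9% of members without shVec 3 (11.9% of all genes) or shNgb 3 (14.6%) and 31.8% without shNgb 1 (18%), against 13.6% (7.1%). The median log2 fold change of -0.051 became -0.033 with upper quartile scaling and ran from -0.066 to -0.027 with 1 tumour left out. Of 273 alternative values of the 21 members taken by the rule for values in every tumour, 266 kept their sign. Itgav and Flnc, given in every tumour outside that rule, are not among the 21. No adjusted p came near the threshold, so its side says nothing of stability. The other 7 changed sign, all with 1 tumour left out, where the log2 fold change ran from -0.079 to 0.11 for Itga6, from -0.60 to 0.016 for Itga7, from -0.089 to 0.086 for Itga9 and from -0.29 to 0.86 for Itgb7. The cause was not tested. Without changing sign, Itga1 ran from 0.064 to 0.80, Itga2 from 0.028 to 0.55, Lims1 from -0.28 to -0.041, Tln2 from -0.39 to -0.15 and Bcar1 from -0.25 to -0.089.

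Deviations of same-numbered tumours from their group means correlated across genes at 0.257, -0.145 and -0.0987, and those of other pairs at -0.259 to 0.327. With 3 tumours in each group these correlations cannot decide whether equal numbers mark a shared batch. With the replicate block Itga5 and Itgax had an unadjusted p under 0.05, 0 members were called, and the log2 fold change of Itga5 was -0.36. Depth limits Itgb6, Itga2b, Itga11 and Itgam, with 8 to 179 reads in all. For Itgam the unknown treatment of reads in shared exons leaves the level uncertain as well.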
